A study of Rattus norvegicus with 102 samples.

Results

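The insulin, insulin-like growth factor (IGF) and growth hormone axis was followed here through 10 genes in 3 subfields of the rat hippocampus. The genes were the ligand Igf1 (ENSRNOG00000004517), the receptors Igf1r, Igf2r, Insr, Ghr and Prlr, the receptor substrates Irs1 and Irs2, and the binding proteins Igfbp4 and Igfbp5. They were taken by gene symbol, and each of the 10 had 1 entry among the 26284 genes of the Illumina table, the 26341 genes of the Ion Proton table and the 26284 genes of the table its submitters call WT. The tissue came from 34 male Fischer 344 rats, 10 young (5 to 6 months) and 24 aged (17 to 22 months). Of the aged rats, 12 were impaired and 12 unimpaired on a water maze test of spatial memory. CA1, CA3 and the dentate gyrus (DG) were dissected from every rat, so that each table held 3 libraries a rat. The labels name no transgene and no drug for any group.

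Insulin and IGF1 bind closely related tyrosine kinase receptors, which phosphorylate Irs1 and Irs2 and so feed the PI3K, AKT and mTOR branch and restrain the FoxO transcription factors. Growth hormone and prolactin bind cytokine-type receptors that signal through JAK2 and STAT5, and growth hormone drives much of the IGF1 made by the liver. In the brain IGF1 is also made locally, and IGF binding proteins hold the ligand in the tissue, while Igf2r clears IGF2 and carries enzymes to the lysosome.

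Levels are normalised counts, that is reads per gene divided by a library size factor, and were not compared between genes. The Illumina libraries held 3.25 to 42.8 M gene-assigned reads (median 10.7), the Ion Proton libraries 4.47 to 21.4 M (median 9.74) and the WT libraries 3.54 to 20.6 M (median 8.07). CA1, CA3 and granule cells were each represented by 3 or 4 markers, with the centre of a subfield taken from the same labelled libraries. The markers placed 14 libraries of each table nearer to another subfield than to the one on their label in both poly-A tables. These were 1 CA1, 9 CA3 and 4 DG libraries from 11 rats, of which 10 had numbers from 9000 up (16 rats in all) and 1 a lower number (18 rats in all). The rats came from separate colonies and were characterised at different universities by the study's methods, and the labels give no site for a rat. By group, 3 were from young, 7 from aged unimpaired and 4 from aged impaired rats. They are called marker-discordant libraries here, and results that rest on them are given with and without them.

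Igfbp4, Igf2r and Ghr were the members that differed between DG and both other subfields, and the 250 bases upstream of their transcription start are shown for that reason. The sequences are from RefSeq (build GRCr8), read 5′ to 3′ along the gene, with motif matches in capitals. Igfbp4 lies at chr10:84491221-84491470 on the plus strand, Igf2r at chr1:50526628-50526877 on the plus strand and Ghr at chr2:54432076-54432325 on the minus strand.
Igfbp4: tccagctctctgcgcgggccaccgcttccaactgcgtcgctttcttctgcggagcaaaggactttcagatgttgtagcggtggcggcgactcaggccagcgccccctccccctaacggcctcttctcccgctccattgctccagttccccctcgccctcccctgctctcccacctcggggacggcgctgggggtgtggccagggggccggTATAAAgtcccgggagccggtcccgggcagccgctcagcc
Igf2r: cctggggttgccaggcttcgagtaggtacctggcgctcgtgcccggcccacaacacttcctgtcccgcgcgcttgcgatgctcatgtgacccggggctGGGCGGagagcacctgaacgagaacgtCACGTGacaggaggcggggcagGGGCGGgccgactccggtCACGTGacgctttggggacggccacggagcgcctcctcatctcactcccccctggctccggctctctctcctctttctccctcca
Ghr: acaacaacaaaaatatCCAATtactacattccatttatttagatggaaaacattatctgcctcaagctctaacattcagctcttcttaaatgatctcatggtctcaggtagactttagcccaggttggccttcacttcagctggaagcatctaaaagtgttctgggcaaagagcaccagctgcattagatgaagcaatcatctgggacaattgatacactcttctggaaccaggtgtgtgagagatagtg
The motifs searched on both strands were the TATA box (TATAAA), the CCAAT box (CCAAT), the GC box of Sp1 (GGGCGG), the E-box (CACGTG), the forkhead motif (GTAAACA) and the STAT motif (TTCNNNGAA), and the E-box and the STAT motif read the same on both strands and were counted once. The Igfbp4 window held TATAAA from 40 to 35 bases before the start, as did 12.9% of 33469 windows at some position. The Igf2r window held the GC box 152 and again 103 bases before the start, and the E-box 125 and again 85 bases before it. The GC box was present in 30.5% and the E-box in 5.59% of all windows. The Ghr window held a CCAAT 234 to 230 bases before the start, a motif of 34% of windows. It had 40.8% G and C and no CpG, against 68.8% with 21 CpG for Igfbp4 and 68% with 23 CpG for Igf2r. These matches are a description of the letters, and no window is listed for Irs2.

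To ask how the axis differs between subfields, the 34 libraries of each were compared regardless of age and cognition, and a gene was called when its adjusted p (limma, Benjamini-Hochberg over all genes) was under 0.05 in both poly-A tables with 1 direction. Prlr was below the filter on low values, a mean of 10, and 9 members were tested. For CA1 against CA3, 3 of the 9 were called, where 14.1% of all 14179 genes were. For CA1 against DG, 4 of 9 were called, where 26.4% of all genes were, and for CA3 against DG 4 of 9, where 27.9% were. The members' median absolute log2 difference was 0.20, 0.30 and 0.25 in the 3 comparisons, against 0.09, 0.13 and 0.13 over all genes. Igfbp4 was called in all 3 comparisons, Igfbp5, Igf2r and Ghr in 2 each, and Igf1 and Irs2 in 1 each.

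**Figure D1:**
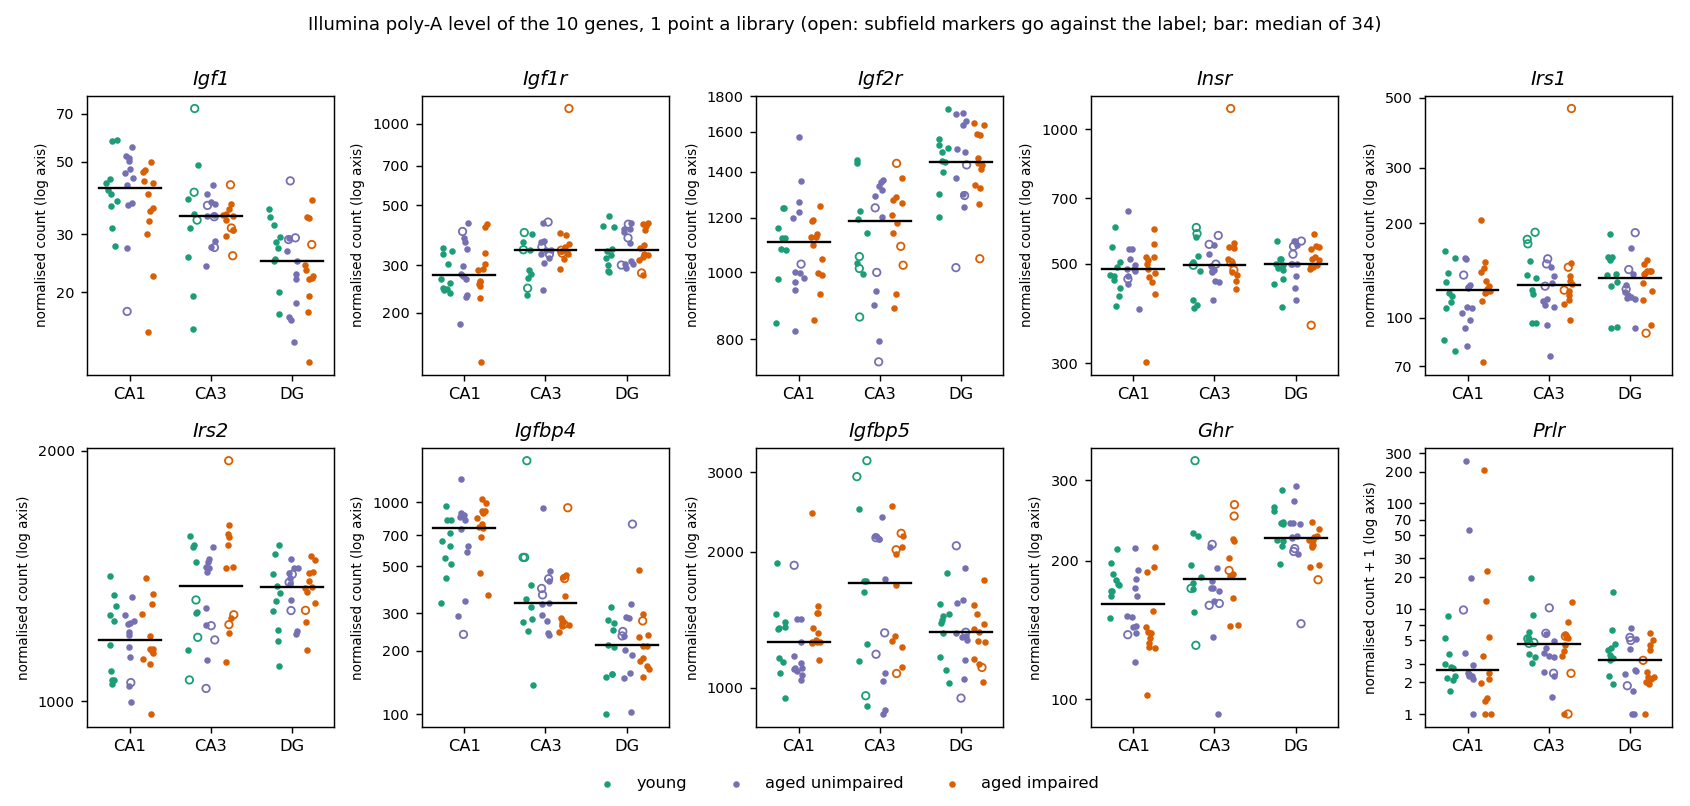
Illumina normalised count of the 10 genes on log axes (Prlr as count + 1), with 1 point for each of the 34 rats per subfield, coloured by age and maze group. Bars are medians, and open points are the 14 marker-discordant libraries. Igfbp4 steps down from CA1 (median 759) through CA3 (334) to DG (212), while Igf2r and Ghr sit highest in DG.

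Igfbp4, a binding protein that PAPP-A proteases cut to free IGF, showed the widest difference of the 9 tested members. Its Illumina level ran from 238 to 1287 in CA1 (median 759), from 138 to 1570.5 in CA3 (median 334) and from 100.5 to 789 in DG (median 212). The ranges overlapped, but within rats CA1 was above DG in 33 of 34 and above CA3 in 28 of 34. CA1 exceeded DG by 1.61 on the log2 scale (SE 0.14, adjusted p = 3.97e-17 with limma) on Illumina and by 1.46 on Ion Proton. CA1 exceeded CA3 by 0.88 (SE 0.14, adjusted p = 3.93e-07 with limma) on Illumina and by 0.88 on Ion Proton. CA3 exceeded DG by 0.73 (SE 0.14) on Illumina and by 0.59 on Ion Proton, where the adjusted p was 0.0101 with limma. The order CA1, CA3, DG was the commonest and was seen in 22 of 34 rats on Illumina and 20 of 34 on Ion Proton.

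Igfbp4 in CA3 moved with the marker-discordant libraries. The 9 such CA3 libraries read 266 to 1570 with a median of 437, and the other 25 read 138 to 935 with a median of 286. The highest CA3 value of Igfbp4, 1570.5 on Illumina and 1273 on Ion Proton, came from young rat R9879, whose CA3 library carried CA1 markers. Without the 14 libraries the difference of CA1 from CA3 was 1.12 and that from DG 1.73, while CA3 against DG was 0.61 on Illumina and 0.40 on Ion Proton, with an Ion Proton adjusted p of 0.0912 (limma), and was no longer called. With the rat as a block it was not called in these libraries either (Ion Proton adjusted p = 0.145 with limma), while edgeR on recovered reads called it (0.62 and 0.48, Ion Proton adjusted p = 0.0236). In the rats numbered below 9000, CA1 exceeded CA3 by 1.44 and the difference of CA3 from DG was 0.33 on Illumina and -0.02 on Ion Proton. In those from 9000 up the values were 0.25 and 1.18, and CA1 against CA3 was not called (adjusted p = 0.498 with limma). CA1 against DG was called in both number series, at 1.76 and 1.43.

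Igfbp5, a binding protein that is also abundant in extracellular matrix, was highest in CA3. Illumina levels ran from 948 to 2442 in CA1 (median 1262), from 874 to 3184 in CA3 (median 1705) and from 948 to 2063 in DG (median 1326). The CA3 libraries covered and exceeded the range of the others, and CA3 was above CA1 in 21 of 34 rats on Illumina and 23 of 34 on Ion Proton. CA1 was below CA3 by a log2 difference of -0.29 (SE 0.09, adjusted p = 0.00686 with limma) and -0.34 on Ion Proton, and CA3 exceeded DG by 0.25 (SE 0.09, adjusted p = 0.0127 with limma) and 0.26. CA1 against CA3 was not called for Igfbp5 within either number series, at -0.14 below 9000 and -0.46 from 9000 up. The limma call of Igfbp5 for CA3 against DG was lost without the 14 marker-discordant libraries (0.20 on Illumina, 0.23 on Ion Proton with an adjusted p of 0.0548). Without them it was made with the rat as a block (0.23 and 0.27, Ion Proton adjusted p = 0.0340 with limma) and with edgeR (0.27 and 0.29). It was also lost without the deeply sequenced rats (Ion Proton adjusted p = 0.0502 with limma) and when rat R2238, R9782 or R9881 was left out. The CA3 against DG difference of Igfbp5 was 0.05 in the rats numbered below 9000 and 0.48 in those from 9000 up. The highest CA3 values, 3184 and 2936, were from young rats R9876 and R9877, both marker-discordant.

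Igf2r, the mannose 6-phosphate receptor that removes IGF2, was higher in DG. Illumina levels were 823 to 1570 in CA1 (median 1107), 742 to 1458 in CA3 (median 1186) and 1016 to 1729 in DG (median 1447). Most DG libraries lay above most others, with DG above CA1 in 31 of 34 rats and above CA3 in 32 of 34. CA1 was below DG by a log2 difference of -0.40 (SE 0.05, adjusted p = 1.67e-10 with limma) and CA3 by -0.34 (SE 0.05, adjusted p = 1.55e-08), with -0.34 and -0.29 on Ion Proton. CA1 and CA3 were not told apart, with a difference of -0.06 and a 95% interval from -0.16 to 0.05. Both calls of Igf2r were made in each number series and without the marker-discordant libraries.

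Ghr, the growth hormone receptor, followed the same order. Illumina levels were 101.86 to 215 in CA1 (median 161), 92.8 to 331 in CA3 (median 183) and 146 to 291 in DG (median 225). DG was above CA1 in 31 of 34 rats in both tables and above CA3 in 27 on Illumina and 25 on Ion Proton, and the ranges overlapped. CA1 was below DG by a log2 difference of -0.49 (SE 0.06, adjusted p = 1.41e-10 with limma) and CA3 by -0.30 (SE 0.06), with -0.67 and -0.46 on Ion Proton. CA1 against CA3 was -0.20 with an adjusted p of 0.00991 on Illumina and 0.274 on Ion Proton (limma) and was not called. CA3 against DG was not called within either number series (-0.35 below 9000 and -0.23 from 9000 up). Across all libraries of a table, Igf2r and Ghr had r = 0.58 on Illumina and 0.50 on Ion Proton, over libraries that share rats. This was the highest of the members' pairs by the lower of both r values, while Insr with Irs1 was closer on Illumina (0.76) and Igf1r with Irs2 on Ion Proton (0.53).

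**Figure D2:**
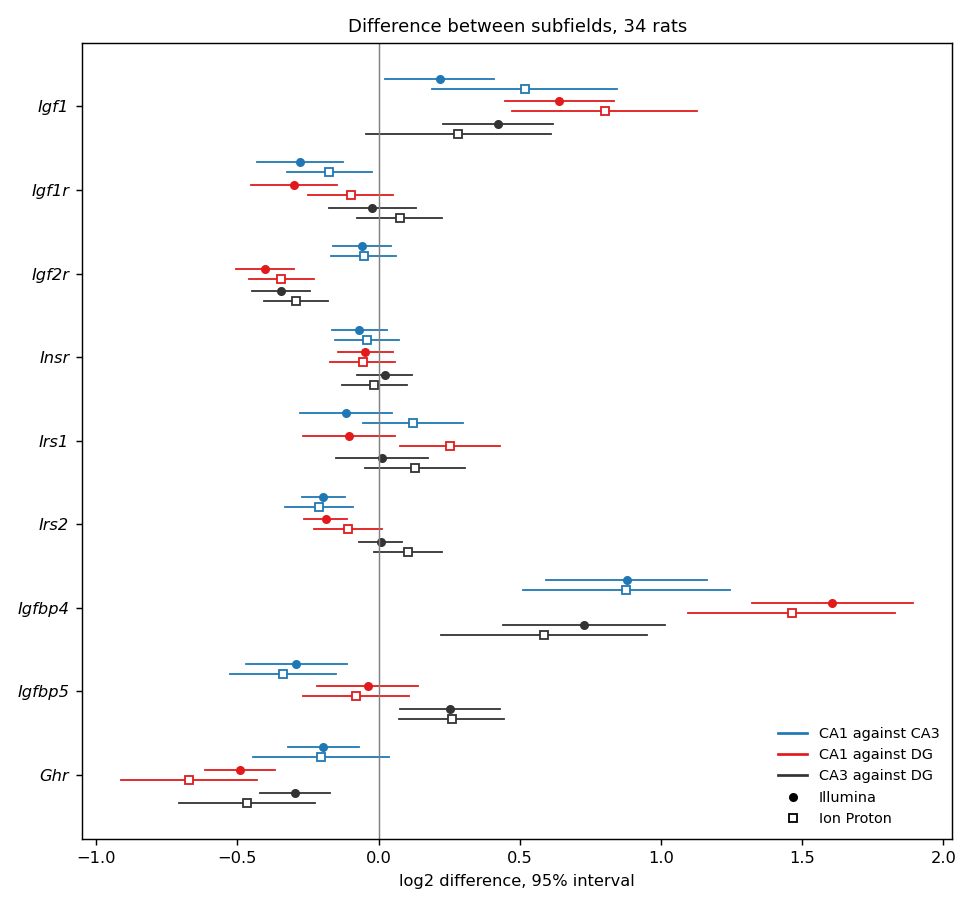
Log2 difference between subfields for the 9 tested members, with 95% intervals, on Illumina and on Ion Proton. Igfbp4 lies to the side of CA1, Igf2r and Ghr to the side of DG, and Insr stays near 0 in all 3 comparisons.

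Igf1, the ligand, had few reads per library and was highest in CA1. Illumina levels were 15.1 to 58.3 in CA1 (median 41.7), 15.5 to 72.6 in CA3 (median 34.04) and 12.2 to 43.7 in DG (median 24.9), counted from 8 to 174 reads. CA1 exceeded DG by 0.64 on the log2 scale (SE 0.10, adjusted p = 2.83e-08 with limma) and by 0.80 on Ion Proton, in 29 of 34 and 31 of 34 rats, in both number series and without the marker-discordant libraries. CA1 against CA3 reached 0.22 (adjusted p = 0.0728 with limma) and 0.52 (adjusted p = 0.0200) and was not called. It was called without the marker-discordant libraries, at 0.30 on Illumina, and was also called with edgeR and with DESeq2 on all libraries. CA3 against DG was 0.42 on Illumina and 0.28 on Ion Proton, where the adjusted p was 0.195. On Ion Proton alone, Igf1 reached 560 in CA1 of unimpaired rat R2230, 150 in CA1 of unimpaired rat R2232 and 244 in CA3 of impaired rat R1931. The same libraries read 44.5, 27.3 and 34 on Illumina, near or below the median of their subfield. These 3 libraries had the fewest detected genes on Ion Proton, between 15057 and 15665 where others reached up to 19607. The CA3 library of R1931 also read 482 for Ghr on Ion Proton and 203 on Illumina, and the part of these libraries in the Ion Proton differences was not tested.

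Igf1r, the receptor of IGF1, was lower in CA1 on Illumina, at 132 to 430 (median 276) against 233 to 1138 in CA3 (median 341) and 276 to 457 in DG (median 343). Its log2 difference from CA3 was -0.28 (adjusted p = 0.00255 with limma) and from DG -0.30, but on Ion Proton these were -0.17 (adjusted p = 0.111) and -0.10, and neither was called. CA1 against CA3 was called for Igf1r without the marker-discordant libraries (-0.23 in both tables) and in the rats numbered below 9000 (-0.45 and -0.48). The highest library, CA3 of impaired rat R9875, read 1138 for Igf1r on Illumina and 533 on Ion Proton. The same library, which is marker-discordant, was also the highest in Insr (1112), Irs1 (463) and Irs2 (1945) on Illumina and read 518, 157 and 1248 on Ion Proton. It had the fewest reads of the Illumina libraries, 3.25 M. In the WT table it read 490 for Igf1r and 226 for Irs1, which is 1.12 and 1.18 times the CA3 median. The part of depth in these values was not tested.

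Insr, the insulin receptor, had nearly equal levels, with medians of 487 in CA1, 498 in CA3 and 500 in DG. Its 3 log2 differences were between -0.07 and 0.02 on Illumina, and their 95% intervals reached from -0.16 to 0.12. Irs1, a substrate of both receptors, read 72.4 to 205 in CA1 (median 122), 75.8 to 463 in CA3 (median 127) and 89.3 to 186 in DG (median 133). For CA1 against DG, Irs1 was -0.10 on Illumina and 0.25 on Ion Proton (adjusted p = 0.0239 with limma), so that the tables gave opposite signs and no call. Irs2, the second substrate, read 965 to 1413 in CA1 (median 1183) and 1036 to 1945 in CA3 (median 1376), and was called lower in CA1 than in CA3 at -0.20 (SE 0.04, adjusted p = 1.86e-05 with limma) and -0.21. CA1 was below CA3 for Irs2 in 27 of 34 rats on Illumina and 26 of 34 on Ion Proton. It was called in the rats numbered below 9000 (-0.28) and not in those from 9000 up (-0.10). Irs2 in DG (1103 to 1540, median 1373) differed from CA1 by -0.19 on Illumina and was not called on Ion Proton (-0.11, adjusted p = 0.177). CA3 against DG was 0.01 for Irs2 in all rats, was called at 0.11 on Illumina and 0.20 on Ion Proton in those numbered below 9000, and was -0.10 in those from 9000 up.

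In bulk tissue, fewer cells of a type and less RNA per cell cannot be told apart. Markers of other cell types also differed between DG and the other subfields. Among the listed markers, 5 of 9 interneuron, 7 of 7 oligodendrocyte, 3 of 10 microglia and 4 of 7 endothelial genes were called higher in CA1 than in DG, and 5 of 9, 7 of 7, 6 of 10 and 1 of 7 were called higher in CA3 than in DG, beside 13.1% and 13.9% of all genes. The endothelial share for CA3 was near that of all genes. None of these 4 lists had a called gene for CA1 against CA3, where Igfbp4 was called. Over all libraries of a table Igfbp4 correlated with the summed endothelial markers at r = 0.53 on Illumina and 0.54 on Ion Proton. With all 8 marker sums compared Igfbp4 was between 0.13 and 0.54, with mural cell and interneuron markers among the higher values. Igfbp5 was highest with leptomeningeal and fibroblast markers, at 0.50 and 0.40. Ghr and Igf2r were negative with all 8 marker sums compared, at -0.12 to -0.57 for Ghr and at -0.28 to -0.59 for Igf2r over both tables. The libraries share rats and size factors, and the part of these cell types in the subfield differences was not tested.

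Prlr, the prolactin receptor, had few reads outside a small number of libraries. At most 3 reads were counted in 21 of 34 CA1, 21 of 34 CA3 and 27 of 34 DG libraries on Illumina. Its level was 254 in CA1 of unimpaired rat R9865, 207 in CA1 of impaired rat R9870 and 54.7 in CA1 of unimpaired rat R9862, and between 0 and 21.6 in all other libraries (median 2.49). All 3 are of rats numbered from 9000 up. They lifted Prlr over the filter in those rats, where it was called higher in CA1 than in DG (1.36 on Illumina, 1.49 on Ion Proton), and a call of a gene that enters through its high libraries is given as a value and supports nothing. These 3 libraries were also the 3 highest in Ttr, the transthyretin transcript that defines the choroid plexus, at 118480, 143340 and 20869, against 0 to 11823 in the rest. On Ion Proton alone, CA3 of impaired rat R1931 read 97.3 for Prlr, with Ttr at 0, and 4.29 on Illumina. Over all libraries of a table Prlr correlated with the summed choroid plexus markers at r = 0.74 on Illumina and 0.66 on Ion Proton, as a description of libraries that share rats. The part of choroid plexus tissue in the Prlr values was not tested.

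**Figure D3:**
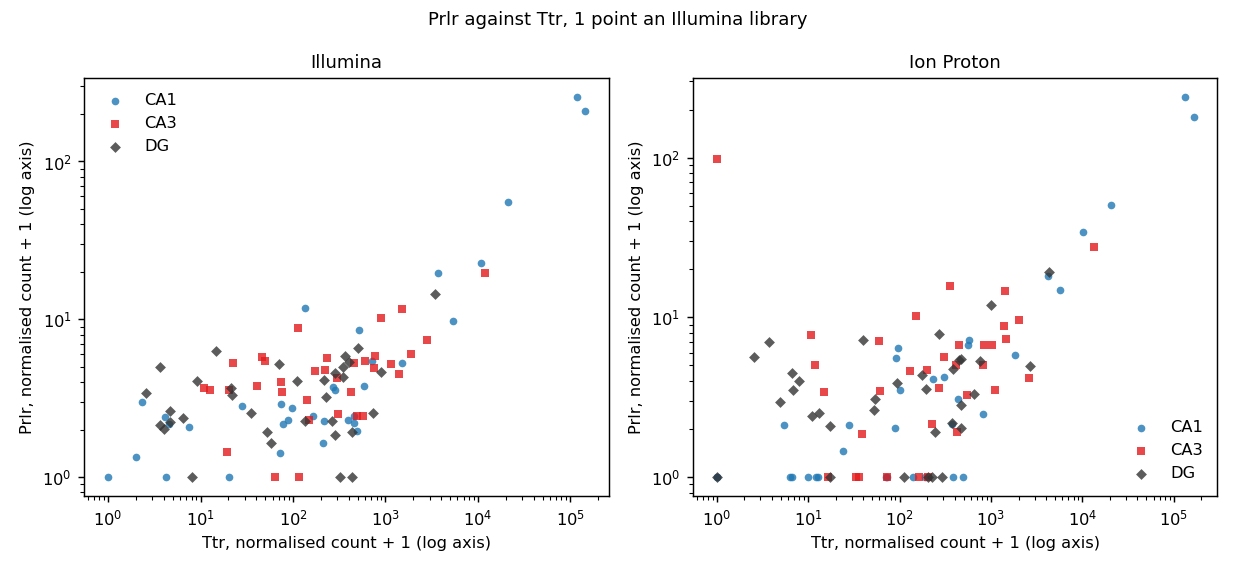
Prlr against Ttr on log axes, on Illumina and on Ion Proton, with 1 point per library. On Illumina the 3 libraries with most Prlr (254, 207 and 54.7) are also the 3 with most Ttr. On Ion Proton CA3 of impaired rat R1931 read 97.3 for Prlr with Ttr at 0.

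To ask whether the axis changes with age, aged and young rats were compared within each subfield. A gene counted as retested when p was under 0.01 on Illumina and the one-sided p in the same direction was under 0.05 on Ion Proton. No member was retested for aged against young rats, where the share of all genes was 0.832% (CA1), 0.393% (CA3) and 1.07% (DG). With limma 1 of 28 member tests had an unadjusted p under 0.05 on Illumina. EdgeR retested 1 member, Prlr in CA1, which is taken up after Ghr, and DESeq2 none. Outside Prlr, the 27 log2 differences lay between -0.23 and 0.22, and the 95% interval of 24 of them was within 0.5 of 0 on either side. Igf1 in CA1, for example, read 27.5 to 58.3 in young rats (median 40.5) and 15.1 to 55.5 in aged rats (median 42.6), and most libraries of both groups lay in the same range.

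**Figure D4:**
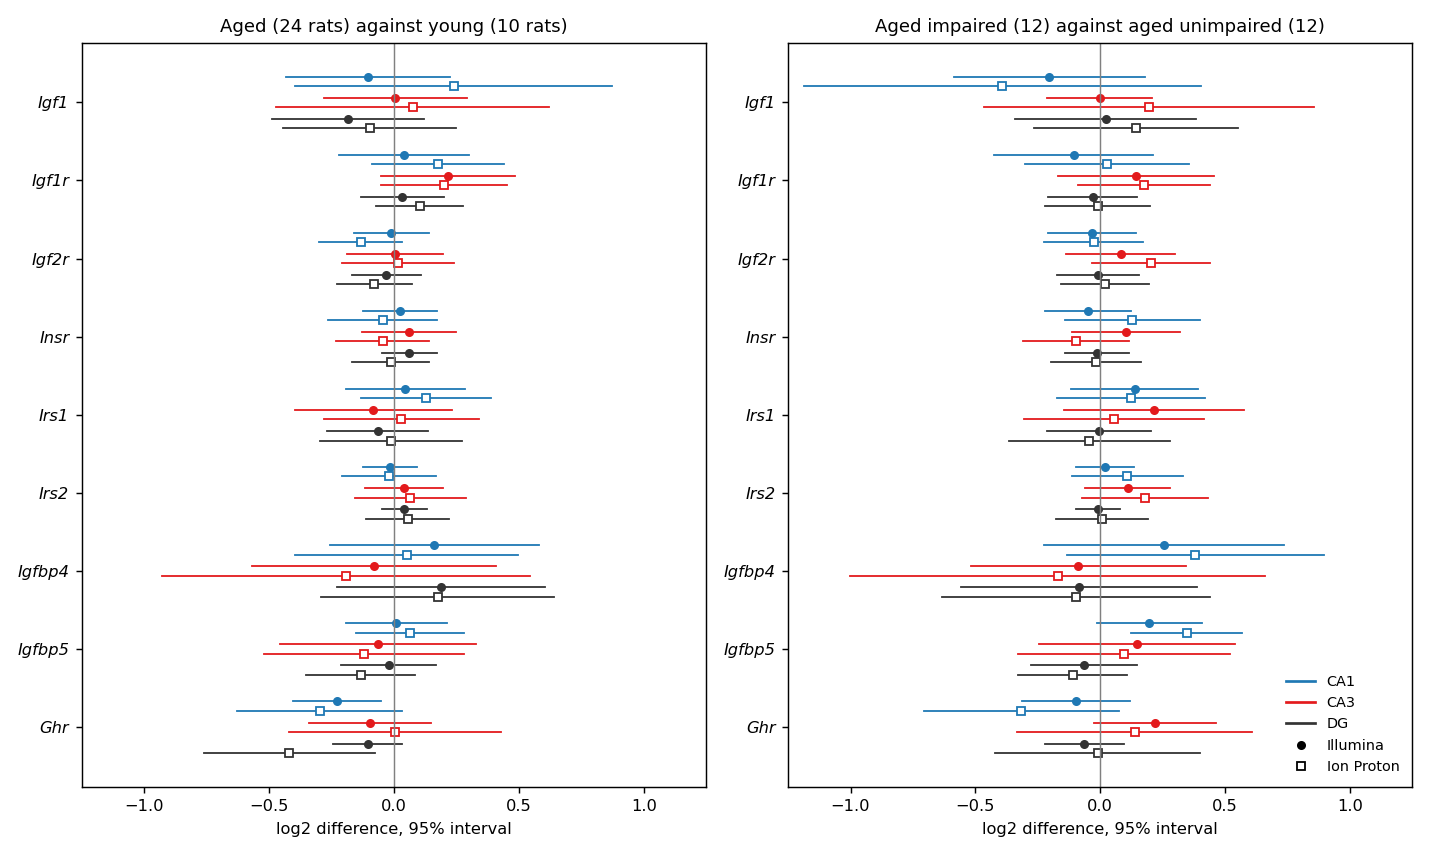
Log2 difference of aged from young rats and of aged impaired from aged unimpaired rats, with 95% intervals, for each member and subfield on Illumina and Ion Proton. Ghr in CA1 has the lowest Illumina value for age outside Prlr (-0.23), and no member was retested.

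Ghr was the member with the lowest p for age on Illumina. In CA1 its Illumina level was 150.6 to 212 in young rats (median 178), 120 to 214 in aged unimpaired rats (median 151) and 101.86 to 215 in aged impaired rats (median 140). The groups overlapped, but 18 of 24 aged rats on Illumina and 20 of 24 on Ion Proton were below the young median. Aged against young was -0.23 (SE 0.09, unadjusted p = 0.0130, adjusted p = 0.561 with limma) on Illumina and -0.30 (unadjusted p = 0.0746) on Ion Proton. Aged impaired against young, which shares the young rats, was -0.28 (SE 0.10, unadjusted p = 0.0102, adjusted p = 0.445 with limma) and -0.46 (unadjusted p = 0.0117). Both fell on the retested side under quantile normalisation (-0.24 and -0.29), and leaving out 1 rat did the same in 7 and 4 of 34 cases. The WT table gave -0.09 (unadjusted p = 0.408) and -0.14 (unadjusted p = 0.240) for the same comparisons of Ghr. In DG the comparison of impaired with young rats gave -0.14 on Illumina (unadjusted p = 0.0335) and -0.42 on Ion Proton (unadjusted p = 0.0244). Beside this, 5 of 10 microglia markers were retested as higher in CA1 of aged rats and none of the 9 interneuron markers was retested, where 0.832% of all genes were, and their part in the Ghr values was not tested.

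Prlr in CA1 rested on few libraries. Within subfields Prlr passed the filter in CA1 through the same 3 libraries, all from aged rats, so its tests against young rats are no support for a difference. The fitted log2 difference of aged from young rats was 0.69 with limma on log values and 3.36 with edgeR on recovered reads. The 10 young CA1 libraries ranged up to 7.51.

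Aged unimpaired against young rats gave no retested member either, where the share of all genes was 0.607% (CA1), 0.386% (CA3) and 0.621% (DG). The comparison of aged impaired with young rats gave none, where 1.21%, 0.274% and 0.948% of genes were. Of 28 limma tests each, 1 and 2 had an unadjusted p under 0.05, and edgeR retested 1 (Prlr in CA1) and 0, and DESeq2 0 and 0. Igfbp4 in CA1 was 0.29 higher in impaired than in young rats (unadjusted p = 0.120 with limma). This was 0.49 in the rats numbered below 9000, where it was retested, and -0.01 in those from 9000 up.

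Impaired and unimpaired aged rats were compared to ask which members go with spatial memory among aged rats, for which the labels give no age per rat. No member was retested, where the share of all genes was 0.62% (CA1), 0.0211% (CA3) and 0.121% (DG), and none of 28 limma tests had an unadjusted p under 0.05 on Illumina. EdgeR and DESeq2 retested none. The log2 differences outside Prlr ran from -0.20 to 0.26, with 21 of 27 intervals within 0.5 of 0 and all 27 within 1.

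Igfbp5 in CA1 came nearest. Its Illumina level was 1041 to 1867 in unimpaired rats (median 1122) and 1151 to 2442 in impaired rats (median 1301), and on Ion Proton 811 to 1527 (median 994) and 1064 to 2185.4 (median 1224). The groups overlapped, although 12 of 12 impaired rats were above the unimpaired median in each table. The difference was 0.20 (SE 0.10, unadjusted p = 0.0637, adjusted p = 0.889 with limma) on Illumina and 0.35 (unadjusted p = 0.00336) on Ion Proton. The highest unimpaired library, at 1867, was CA1 of rat R9869, which is marker-discordant, nearest DG, and low in CA1 markers. Without the marker-discordant libraries the difference was 0.25 (unadjusted p = 0.00986, adjusted p = 0.501 with limma) and 0.40 on Ion Proton (unadjusted p = 0.000423), which put Igfbp5 on the retested side. With the WT table in place of the Illumina table it was 0.27 (unadjusted p = 0.00104).

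**Figure D5:**
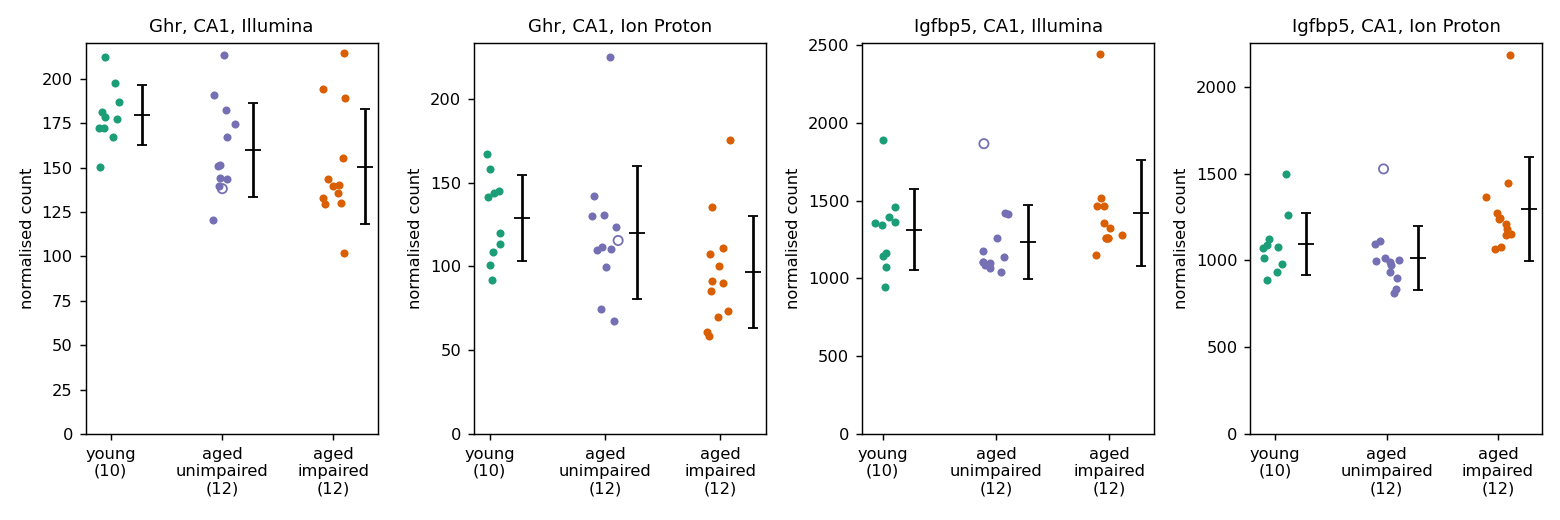
Normalised count of Ghr and Igfbp5 in CA1 of young, aged unimpaired and aged impaired rats on Illumina and Ion Proton, with 1 point per rat. Bars are the mean and standard deviation. The medians, which are not drawn, step from 178 to 151 and 140 for Ghr on Illumina. For Igfbp5 on Illumina they are 1122 in unimpaired and 1301 in impaired rats.

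Whether these effects differ between subfields was tested as an interaction. No member's age effect or cognition effect differed between subfields at an adjusted p under 0.05, as for 0.0% of all genes. With limma 0 of 27 and 1 of 30 member tests had an unadjusted p under 0.05, and edgeR and DESeq2 called none. The 1 was Ghr, whose effect of impairment in CA1 was 0.32 below that in CA3 on the log2 scale (unadjusted p = 0.0341, adjusted p = 0.959 with limma).

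The other genes of the pathway were read from lists of 93 genes by role, of which 81 passed the filter. Between subfields 19 were called for CA1 against CA3 (12 higher and 7 lower in CA1), 40 for CA1 against DG (29 higher and 11 lower in CA1) and 39 for CA3 against DG (25 higher and 14 lower in CA3). These are 23.5%, 49.4% and 48.1% of those tested, beside 14.1%, 26.4% and 27.9% of all genes. Among ligands, Igf2 was higher in CA1 than in DG by 1.15 on the log2 scale, with an Illumina range of 64.4 to 7363 in CA1 and 25.9 to 340 in DG. Igf2 is made in choroid plexus and meninges. The highest Igf2 library was CA3 of young rat R9876 at 12935, with Prlr at 4.19 and Ttr at 1133, and the 2 CA1 libraries with most Prlr and Ttr read 6541 and 7363. CA1 of young rat R2175 read 2345 for Igf2 with Ttr at 457, and the part of either tissue in the Igf2 values was not tested. Of the 6 receptors tested all 6 were called for CA1 against DG. Ghsr, the ghrelin receptor that stimulates growth hormone release, was lower than in DG in CA1 (-1.29) and in CA3 (-1.67), with medians of 34.4 in CA1, 24.7 in CA3 and 81.7 in DG. Among the somatostatin receptors, which oppose growth hormone release, Sstr2 was higher in CA1 than in CA3 by 0.92, Sstr4 higher in CA1 than in DG by 0.75 and Sstr1 higher in CA3 than in DG by 0.59, while Sstr3 was lower in CA1 than in CA3 (-0.59) and than in DG (-0.78). Lrp2, an endocytic receptor, was higher in CA1 than in CA3 by 0.93.

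Among binding proteins and their proteases, 1 of 10 was called for CA1 against CA3, 6 of 10 for CA1 against DG and 8 of 10 for CA3 against DG, beside 14.1%, 26.4% and 27.9% of all genes. Igfbp3 was lower in CA1 than in CA3 (-0.74). Pappa2, a protease that cuts IGF binding proteins, was higher than in DG by 1.73 in CA1 and 1.15 in CA3, from low levels (Illumina medians 12.6, 4.48 and 2.11). It passed the filter, a mean of at least 10, through its high libraries. Both calls are in the counts above but are given as values and are no support for a difference. For CA3 against DG, Pappa2 was 2.73 in the rats numbered from 9000 up and turned to -0.25 in those below 9000. Igfbp6 was higher in CA1 than in DG by 0.88 and Igfbp2 higher in CA3 than in DG by 1.07. Of the 13 adaptors and brakes at the receptor, 4, 6 and 8 were called (30.8%, 46.2% and 61.5%), among them Grb10 (0.53) and Enpp1 (-0.33) for CA1 against CA3. Grb10 was 1.20 in the rats numbered below 9000 and turned to -0.23 in those from 9000 up. For the comparison of CA1 with DG, the adaptors Grb14 (0.81) and Gab1 (0.55) had the widest mean of both tables. For CA3 against DG these were Enpp1 (0.84) and Gab1 (0.71), with Grb14 at 0.73 on Illumina.

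The 26 genes of the PI3K, AKT and mTOR branch had 4, 6 and 5 calls in the 3 comparisons, which is 15.4%, 23.1% and 19.2% of them beside the 14.1%, 26.4% and 27.9% of all genes. Eif4ebp1, a brake on translation that mTOR inactivates, was higher in CA1 than in CA3 by 0.35, and Tsc2, an mTOR inhibitor, was lower (-0.27). Pik3cb, a catalytic subunit of PI3K, was lower than in DG in CA1 (-0.32) and in CA3 (-0.53). Pdpk1 was lower in CA1 than in DG (-0.24) and Pik3cd higher in CA3 than in DG by 0.26. Among the 14 FoxO factors and known targets 4, 10 and 10 were called. Bcl6 (0.68) and Sesn1 (0.55) were higher in CA1 than in CA3, Txnip was higher than in DG in CA1 (0.72) and CA3 (0.89), Cdkn1a was higher in CA3 than in DG (0.66) and Foxo6 was lower in CA1 than in DG (-0.68). In the JAK and STAT branch 2, 5 and 5 of 10 were called. Socs2, which is induced by growth hormone and restrains its receptor, was lower in CA1 than in CA3 (-0.99) and than in DG (-0.93), with Illumina medians of 44.3, 91.0 and 81.3 in CA1, CA3 and DG. Stat5b was higher in CA1 than in CA3 by 0.26 and than in DG by 0.76, and higher in CA3 than in DG by 0.50, and Stat5a was higher in CA3 than in DG by 0.47.

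With age or impairment, 9 of 969 tests of the pathway genes (0.929%) were retested in all comparisons and subfields together, where 0.591% of the tests of all genes were. Prl, a pituitary hormone, made up 2 of the 9, in CA3 of aged and of impaired against young rats, and passed the filter there through the impaired rats in which it is high, so that neither is support for a difference. It was listed at 0 in all 10 young CA3 libraries on Illumina, so the fitted log2 differences of 2.03 and 2.70 depend on the pseudocount. The signal lay in 5 impaired rats, at 22.4 to 374, while the 7 other impaired rats read at most 1.99 and the unimpaired rats at most 6.46. In DG, Stc1, an inhibitor of PAPP-A, was lower than in young rats in aged (-0.34) and in unimpaired rats (-0.38), and Stat3 was higher by 0.15 in each. Sstr4 was lower in CA3 of unimpaired than of young rats (-0.41), Igfbp6 was higher in CA1 of impaired than of unimpaired rats by 0.74, and Bcl6 was lower in DG of impaired than of unimpaired rats (-0.27). None of the 9 had an adjusted p under 0.05 (limma), the lowest being 0.110 for Stat3 in DG.

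To see which genes of the hippocampus vary as the members do, each member was correlated with 13907 genes over all Illumina and over all Ion Proton libraries, and the lower of both r values was ranked. The libraries share rats and size factors, and the values are a description. Igf2r was closest to Ryr2 (lower r 0.87), Nrp1 (0.84) and Cacna1c (0.83). Igfbp4 was closest to Efhd2 (0.80), Stard10 (0.80) and Cds1 (0.78), and Irs2 to Srebf2 (0.78), Gbf1 (0.76) and Snap91 (0.74). For Ghr the closest were Dock11 (0.73), Tbc1d8b (0.73) and Dpyd (0.72), and for Igf1r Tulp4 (0.71), Kcna1 (0.65) and Zhx3 (0.64). Those of Irs1 were Foxk1 (0.67), Zc3h4 (0.66) and Arid1a (0.65), of Igfbp5 Nr2f2 (0.65), Tspan9 (0.62) and Slc7a8 (0.60), of Insr Cramp1l (0.65), Znrf3 (0.61) and Zfp236 (0.60), and of Igf1 Etv1 (0.61), Foxp1 (0.61) and Cdkl1 (0.59).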

How the data were processed

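The authors dissected CA1, CA3 and DG from 34 rats, isolated RNA and sequenced poly-A libraries on the Illumina and Ion Proton platforms. They aligned reads to rn5, the Ion Proton reads with TopHat2 and Bowtie2, and counted them per gene with featureCounts 1.4.4, and the submitters' processing notes also name bcl2fastq 2.17, cutadapt 1.8.3, STAR 2.5 and DESeq2 1.16.1. The extraction protocol names a stranded Illumina kit, and the strand setting of the counting is not given in the sources used here, nor is the library type of the WT table. The deposited signal is a table of normalised counts per gene, that is counts divided by a size factor per library. Multiplying back gave whole reads for 100% of values within a tolerance of 0.01, so edgeR 4.0.16 and DESeq2 1.42.0 were run on recovered reads as alternatives. No libraries held identical values.

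The main test was limma 3.58.1 (R 4.3.3, trend) on log2(value + 1) of genes with a mean of at least 10, fitted over all genes with Benjamini-Hochberg adjustment. A fold change on this scale understates that of low genes. Subfields were compared in 1 fit of all libraries of a table. Age and impairment were compared within a subfield, with the thresholds given beside the results. Rat numbers pair the 3 subfields because they name the same animal, and a fit with the rat as a block was an alternative. The numbers form a series below 9000 (18 rats) and one from 9000 up (16 rats), both with young, unimpaired and impaired rats. The labels do not say what the series are. By the methods the rats came from different suppliers to 2 sites, and the young and aged rats per series equal those per site, but no source ties a rat to a site. The series were fitted apart and as a covariate. Other alternatives were a pseudocount of 0.1, no filter, quantile normalisation, the WT table in place of Illumina, no deeply sequenced rats (7 rats with over 25 M reads in a library), no marker-discordant libraries, and each rat left out. EdgeR and the block without marker-discordant libraries were added after seeing the data. The fits were tested on simulated data.

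The members, gene lists and markers were chosen with earlier results of these data known. All members are named, and of the pathway genes those with the widest called difference in each role (at most 2 per comparison of subfields), all retested ones, and the 3 genes most like each member. Sstr3, and Grb14 for CA3 against DG, were named after their values were seen. Promoter windows and start sites are RefSeq's for GRCr8 and were matched by symbol to 9 of 10 members.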

Additional observations from a re-analysis of the deposited data

Results flagged for a closer look

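Of 60 groups of 10 young libraries (10 genes, 3 subfields, 2 poly-A tables), 9 had a highest or lowest value far from the rest. The rule flags about 1 in 20 groups of normally distributed values. These counts were not put on a log scale and both tables came from the same RNA, so the 9 cannot be set against that rate. Igfbp4 in CA3 was 1570.5 on Illumina and 1273.1 on Ion Proton in rat R9879, and the nearest young rats read 550 and 394. Ghr in CA3 was 330.71 on Illumina in rat R9876, with the nearest at 230, and 227 for this rat on Ion Proton. Both CA3 libraries were placed nearest CA1, with CA3 markers low in both and CA1 markers high in that of rat R9879 only. The part of that in these values was not tested.

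Prlr was 7.5116 in CA1 of rat R9876, 18.557 in CA3 of rat R2221 and 13.485 in DG of rat R9881 on Illumina, and 26.69 in CA3 of rat R2221 on Ion Proton. Ttr in these Illumina libraries was 513 for rat R9876, 11823 for rat R2221 and 3440 for rat R9881. Igf1 in DG was 41.219 on Ion Proton in rat R1923 and 29.5 on Illumina. Insr in DG was low at 384.44 on Ion Proton in rat R9780 and was 400 on Illumina.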

How the results depend on the processing

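Of the members' 11 subfield calls, 11 were also made under the replicate block, which pairs the libraries of a rat, and the members called were the same. Leaving out 1 rat at a time gave 10 to 12. In the rats from 9000 up Prlr gained a call for CA1 against DG, also through its high libraries, and in those below 9000 Irs2 gained one for CA3 against DG. Ghr in CA1 made the count for aged against young rats 1 under quantile normalisation, and that for impaired against young 1 under quantile normalisation and with the number series as a covariate, while Igfbp4 made the latter 1 in the rats numbered below 9000. Prlr made the counts for aged and for unimpaired against young rats 1 with edgeR, with and without the marker-discordant libraries, having passed the filter through its high aged libraries. Igfbp5 made impaired against unimpaired 1 with the WT table, and without the marker-discordant libraries with limma and with edgeR. Leaving out each rat gave 0 to 1 for aged against young, 0 to 1 for impaired against young and 0 to 1 for impaired against unimpaired. The causes were not tested.

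Pathway calls between subfields were 57 in the rats from 9000 up, against 98 in all. Pathway calls with age or impairment were 14 with no filter and 18 with edgeR, against 9, and 7 to 14 leaving out each rat, and edgeR called 1 interaction. Grb10, CA1 against CA3, turned to -0.23 in the rats from 9000 up, and Pappa2, CA3 against DG, to -0.25 in those below 9000. Among all other values of named genes 3028 kept their side of the threshold, 71 lost and 22 gained a call. Of values never called, 690 of 8598 changed sign.

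Over all genes, calls for CA1 against CA3 were 1996, with 3023 in the rats below 9000, 551 in those from 9000 up, 3114 with edgeR and 3345 with the block, both without marker-discordant libraries. CA1 against DG had 26.4% of the genes tested, and 15.4% in the rats below 9000. For age and impairment the genes retested ranged over the alternatives from 29 to 249 in CA1 (171 for impaired against young), from 0 to 157 in CA3 (56 for aged against young) and from 5 to 204 in DG (133 for impaired against young). With an interaction, where limma called 0 genes, DESeq2 called up to 19 and edgeR up to 16. Depth limits Igf1, counted from 8 reads up, and Prlr.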
